A study of Rattus norvegicus with 4 samples.

Results

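The genes described here are the neuregulin ligand Nrg1, the receptors Erbb2 and Erbb3 that carry its signal, and Adgrg6, a second receptor of Schwann cells. They were chosen by name, and all 4 were found among the 25267 gene symbols of the count matrix. Cells were taken from sciatic nerve or dorsal root ganglion (DRG, the cluster of sensory neuron bodies beside the spinal cord) of Sprague Dawley rats, aged 8 weeks or P1 (postnatal day 1), sex not determined, and each combination of tissue and age had 1 library, 4 in all. The cells were captured in droplets and their transcripts counted near the 3′ end by unique molecular identifiers (UMIs). The number of animals per library is not given in the sources used here. A protocol for primary Schwann cells in serum medium is among the labels, but it is not stated that the cells in these libraries had gone through it. The barcodes carry a suffix from 1 to 4. The sources used here give no key from suffix to tissue or age, so the libraries are named by suffix, neither tissues nor ages were compared, and cell classes were set against each other only within a library. With 1 library per group there is no replicate error and no test, and the exact 95% intervals beside the values cover counting error alone.

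Neuregulin-1 on axons binds ErbB3 on Schwann cells. ErbB3 has little kinase activity of its own and signals by pairing with ErbB2, which has an active kinase and no known ligand, and this pair drives Schwann cell survival, migration, division and myelin thickness. Adgrg6 (also called Gpr126) is an adhesion G protein-coupled receptor that raises cyclic AMP in Schwann cells and is needed for them to start myelination. Type IV collagen, laminin-211 and the prion protein are its known ligands or partners.

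The libraries held 10087 to 10559 barcodes and 74425958 to 97572003 UMIs each. Of 41444 barcodes, 33175 passed the filters on detected genes and mitochondrial UMIs, and 30965 of these were placed in a cell class by markers that include none of the 4 genes. Libraries shared few barcode letters (383 barcodes), and leaving these out moved none of the 36 values recomputed without them outside its interval. Glia-like cells, gated by glial markers, among them Sox10, S100b, Cdh19, Foxd3, Gpm6b and Gfra3, numbered 230, 1424, 549 and 5606 in libraries 1 to 4. Fibroblast-like cells numbered 6613, 422, 1414 and 1629, and macrophage-like cells 2016, 171, 104 and 95. Neuron-like cells were numerous in library 2 (5260) and library 3 (3381), were absent from library 1 and numbered 2 in library 4. Levels are given as CPM, the UMIs of a gene per 1000000 UMIs of its class, and are compared between classes for a gene, not between genes. Among the 10 leading genes by fold, 16 of 27 sets of library and class had more markers of their own class than of any other, and the perineurial-like cells had 1 of each. The other 10 sets, which are the fibroblast-like cells of every library, the glia-like and neuron-like cells of libraries 2 and 3 and the macrophage-like cells of libraries 1 and 4, had 0 of their own and 0 of another class there, so their leading genes say nothing on the name. Their names rest on the gate markers; over all 27 sets, 3 to 11 markers of the own class had at least 20 UMIs.

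Erbb3, the receptor that binds neuregulin, was highest in glia-like cells in all 4 libraries. Its level there was 168 CPM in library 1 (95% interval 139.9 to 199), 128 CPM in library 2 (122 to 134), 240.1 CPM in library 3 (220.2 to 261) and 381 CPM in library 4 (375 to 387). In fibroblast-like cells of the same libraries it was 0.57, 0.66, 2.09 and 42.6 CPM. Erbb3 was thus near 0 in fibroblast-like cells of libraries 1 to 3 and reached 11.2% of the glial level in library 4. For libraries 1, 3 and 4 the log2 ratio of glia-like over fibroblast-like cells was 8.20 (7.64 to 8.80), 6.85 (6.19 to 7.59) and 3.16 (3.06 to 3.27). Library 2 had 2 Erbb3 UMIs in fibroblast-like cells, which gave a log2 ratio of counts of 7.60 (5.75 to 10.65). In library 4 the glial genes Prx, Mbp, Mag and Sox10 stood at 13.2%, 11.1%, 9.02% and 5.61% of the glial level in fibroblast-like cells, beside the 11.2% of Erbb3. Their part in the Erbb3 value was not tested. The library 4 ratio moved with the processing, to 1.88 as a mean over cells and to 3.79 with a mitochondrial limit of 10%, and that of library 2 was 5.33 when no lead over a second class was asked.

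Adgrg6 was also highest in glia-like cells of every library, but it was less restricted to them. Its level in glia-like cells was 86.5 CPM in library 1 (66.9 to 110.0), 122 CPM in library 2 (116 to 128), 70.0 CPM in library 3 (59.5 to 81.9) and 123 CPM in library 4 (119 to 126). Fibroblast-like cells had 1.95, 1.97, 5.39 and 22.5 CPM. The log2 ratios of glia-like over fibroblast-like cells were 5.47 (5.01 to 5.92), 5.95 (4.82 to 7.40), 3.70 (3.23 to 4.19) and 2.45 (2.30 to 2.59) in libraries 1 to 4. As a mean over cells, that of library 4 was 1.64. Endothelial-like cells, which line vessels, carried Adgrg6 as well, at 20.2 and 22.1 CPM in libraries 1 and 2, and at 5.50 and 3.17 CPM in libraries 3 and 4. In libraries 1 and 2 these endothelial levels lay above the fibroblast-like level beyond the counting intervals. Perineurial-like cells, the sheath cells around nerve bundles, had 0 Adgrg6 UMIs and 0 Erbb3 UMIs among 211 cells of library 1, where 3 UMIs would be 1.74 CPM.

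Erbb2, the kinase partner, was spread over glia and stromal cells. Glia-like cells had 13.1 CPM in library 1 (6.28 to 24.1), 17.7 CPM in library 2 (15.4 to 20.2), 21.5 CPM in library 3 (15.9 to 28.6) and 23.8 CPM in library 4 (22.4 to 25.2). Fibroblast-like cells had 6.59 CPM (5.95 to 7.29), 9.21 CPM (6.12 to 13.3), 11.4 CPM (9.34 to 13.9) and 22.9 CPM (20.8 to 25.2). The log2 ratio of glia-like over fibroblast-like cells was 0.94 (0.37 to 1.56) in library 2 and 0.91 (0.39 to 1.42) in library 3, and in library 4 it was 0.05 (−0.11 to 0.22), where the levels could not be told apart at this depth. Library 1 had 10 Erbb2 UMIs in its glia-like cells, too few to be measured by the rule below, and its log2 ratio of 0.99 had an interval of −0.08 to 1.89. The highest Erbb2 level of library 1 was in perineurial-like cells, at 26.7 CPM (19.5 to 35.6), with an interval that overlapped that of the glia-like cells. Mural-like cells, the muscle-like cells of vessel walls, had 5.00, 10.4 and 12.7 CPM in libraries 2 to 4.

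A ratio was counted as measured where the higher side came to at least 20 UMIs at the total of the shallower side, and as called where it was at least 2-fold. Between glia-like and fibroblast-like cells, Erbb3 and Adgrg6 were measured and called higher in 4 of 4 libraries. Erbb2 was measured in 3 libraries and called in 0, and Nrg1 was measured in 0. Of all genes measured, 28%, 12.8%, 13.6% and 12.6% were called higher in libraries 1 to 4, and 14.1%, 18.2%, 15.8% and 17.9% were called lower. The median log2 ratio over all measured genes was 0.46, −0.12, 0.13 and 0.02 in libraries 1 to 4, so ratios in library 1 carry a shift of that size. Erbb3 lay above 99.2%, 99.9%, 99.8% and 99.0% of the measured genes and Adgrg6 above 97.6%, 99.6%, 97.6% and 96.7%.

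**Figure D1:**
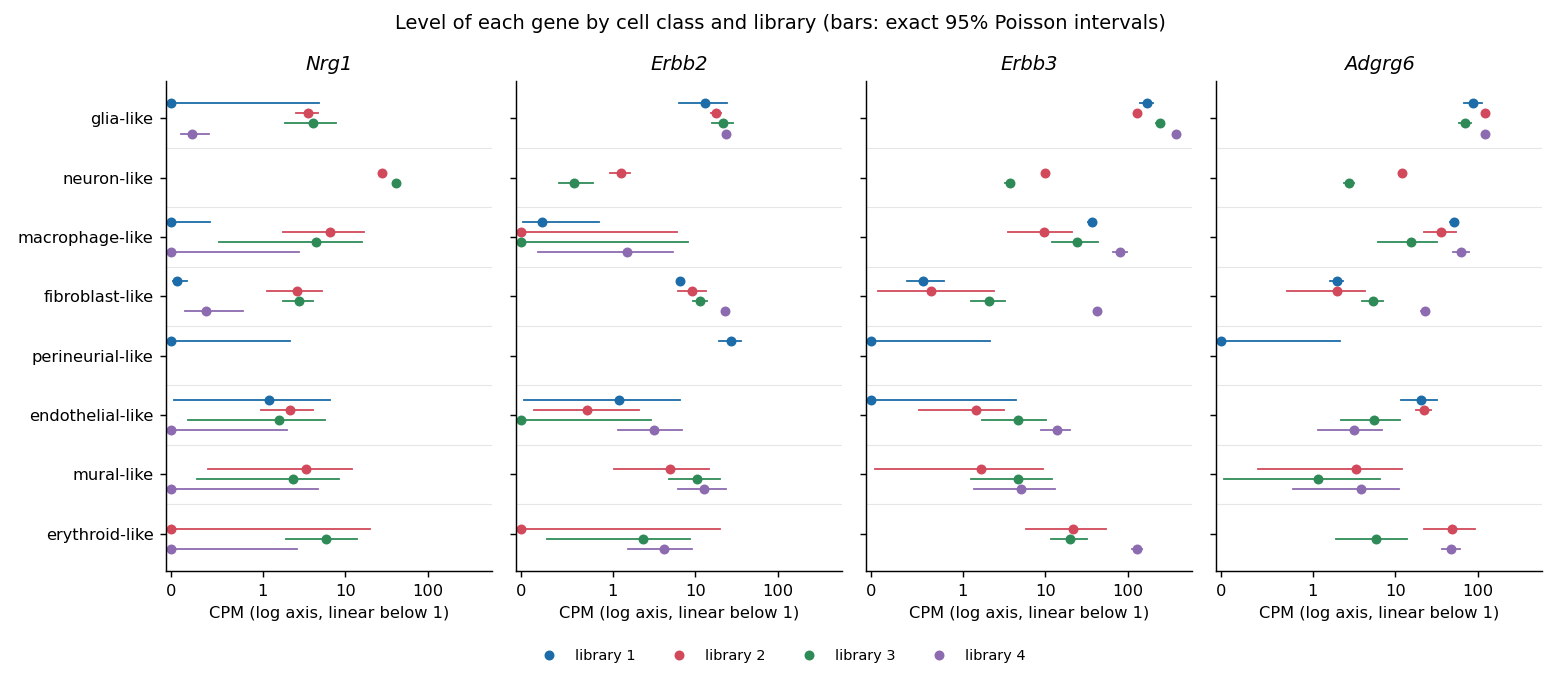
Level of each gene (CPM, log axis that is linear below 1) by cell class, with 1 point per library and exact 95% Poisson intervals; T or NK cell-like and neutrophil-like cells are not drawn. Erbb3 and Adgrg6 points of glia-like cells lie right of every other class in their library, Nrg1 peaks in neuron-like cells at 27.9 and 40.6 CPM, and Erbb2 points of glia-like and fibroblast-like cells lie close together.

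**Figure D2:**
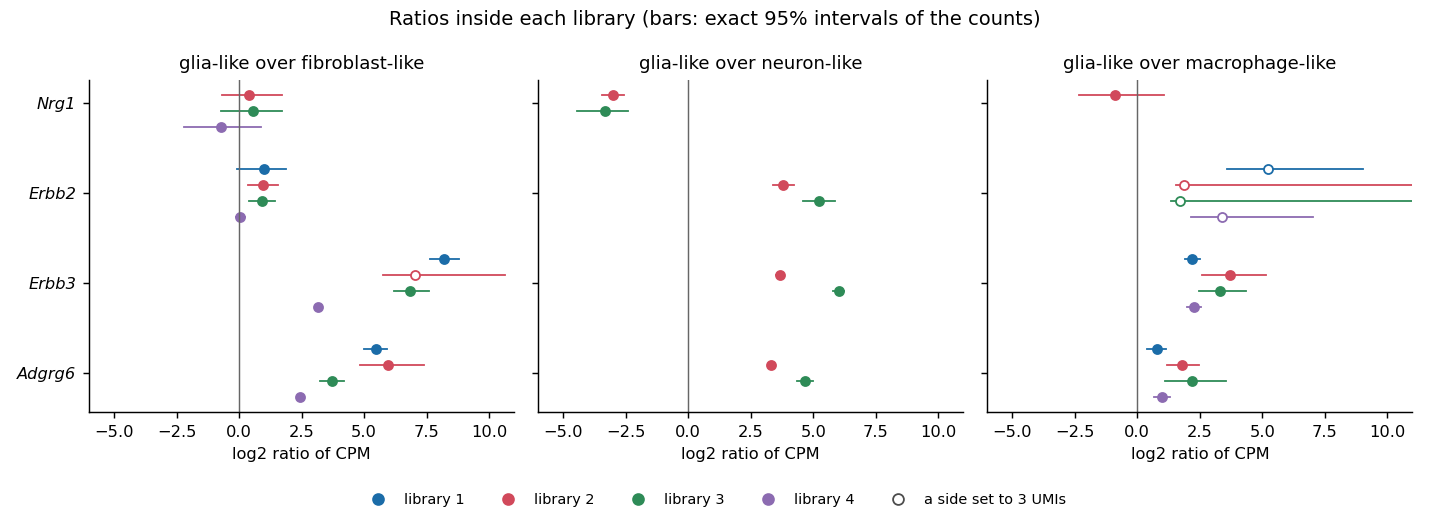
Log2 ratios of CPM of glia-like cells over fibroblast-like, neuron-like and macrophage-like cells, with 1 point per library and exact 95% intervals cut at the axis; open points have a side set to 3 UMIs. Erbb3 over fibroblast-like cells spans 3.16 to 8.20, and Nrg1 lies left of 0 against neuron-like cells at −2.99 and −3.33.

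Promoter sequences are shown for Adgrg6 and Erbb2, the 2 of the 4 genes that the promoter set used here held. They are the 250 bases before each annotated start, from RefSeq (build GRCr8). The counts themselves used build Rnor_6.0, so the positions are not those of the deposited matrix. Adgrg6 is on chr1:10773876-10774125, minus strand, and Erbb2 on chr10:83907351-83907600, plus strand. Capitals mark the GC box GGGCGG on either strand.
Adgrg6: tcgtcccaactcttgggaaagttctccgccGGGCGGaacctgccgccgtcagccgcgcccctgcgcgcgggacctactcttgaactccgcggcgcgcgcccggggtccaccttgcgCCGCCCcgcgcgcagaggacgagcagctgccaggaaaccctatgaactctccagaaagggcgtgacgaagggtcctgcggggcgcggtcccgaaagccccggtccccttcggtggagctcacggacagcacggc
Erbb2: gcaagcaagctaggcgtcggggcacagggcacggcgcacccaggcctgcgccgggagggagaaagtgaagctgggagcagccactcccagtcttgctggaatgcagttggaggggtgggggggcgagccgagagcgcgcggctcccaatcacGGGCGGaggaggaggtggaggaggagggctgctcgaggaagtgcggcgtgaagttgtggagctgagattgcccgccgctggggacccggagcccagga
The Adgrg6 window held 2 GC boxes and 33 CpG dinucleotides, and the Erbb2 window 1 GC box and 19 CpG dinucleotides. Over all 33469 windows of this length the median was 5 CpG dinucleotides, and 30.5% held a GC box. The TATA motif TATAAA was in neither window and in 12.9% of all windows. The SOX motif ACAAAG was in neither window and in 16.3% of all windows. The CREB motif TGACGTCA was in neither window and in 1.59% of all windows. The E-box CANNTG, which either strand reads alike, had 1 match in each window and was in 65.5% of all windows.

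Nrg1, the ligand, was highest in neuron-like cells. In library 2 it had 3.50 CPM in glia-like cells (2.54 to 4.70, from 44 UMIs), against 27.9 CPM in neuron-like cells (26.4 to 29.4, from 1367 UMIs). In library 3 it had 4.04 CPM in glia-like cells (1.85 to 7.67, from 9 UMIs), against 40.6 CPM in neuron-like cells (39.1 to 42.1, from 2809 UMIs). This gave log2 ratios of glia-like over neuron-like cells of −2.99 (−3.46 to −2.56) and −3.33 (−4.46 to −2.40). The receptors had the opposite order. The log2 ratio of glia-like over neuron-like cells was 3.67 and 6.02 for Erbb3, 3.80 and 5.22 for Erbb2, and 3.33 and 4.67 for Adgrg6 in libraries 2 and 3. All 4 genes were measured in both libraries, 3 were called higher and 1 lower. Of all genes measured, 22.7% and 26.7% were called higher and 32.1% and 22.7% lower.

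Outside neurons few Nrg1 UMIs were counted. The other classes of libraries 2 and 3 had from 0 to 6.49 CPM, and the intervals of neighbouring classes in that order overlapped, which does not show that their levels were alike. Small classes had wide intervals, which reached 16.6 CPM for macrophage-like and 19.6 CPM for erythroid-like cells of library 2 and 28.3 CPM for neutrophil-like cells of library 3. In these libraries neuron-like cells had 797% and 1005% of the glial Nrg1 level, and 1094% and 1336% of the glial level of Stmn2, a neuronal tubulin regulator used as a marker. The part of free neuronal RNA in the non-neuronal Nrg1 values was not tested. In libraries 1 and 4, which held 0 and 2 neuron-like cells, 6 and 22 Nrg1 UMIs were counted in all kept barcodes. Glia-like cells had 0 of them in library 1, where 3 UMIs would be 3.93 CPM, and 11 in library 4 (0.23 CPM, 0.12 to 0.41).

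Many neuron-like barcodes were shallow, with 4546 of 5260 in library 2 and 1693 of 3381 in library 3 under 5000 UMIs. Deeper neuron-like barcodes were divided by markers of large, myelinated-type neurons and of nociceptors, the neurons of pain. Large-type neurons had 32.4 CPM of Nrg1 in library 2 (66 cells, 26.8 to 38.8) and 70.6 CPM in library 3 (142 cells, 64.5 to 77.1). Nociceptor-type neurons had 28.8 CPM (638 cells, 27.2 to 30.5) and 37.6 CPM (1508 cells, 36.1 to 39.2). The log2 ratio of large-type over nociceptor-type neurons was 0.91 in library 3 (0.77 to 1.05) and 0.17 in library 2, where the interval ran from −0.12 to 0.44. At least 2-fold higher in large-type neurons were 10.6% of all genes measured in library 2 and 9.63% in library 3. Shallow neuron-like barcodes had 18.3 and 24.6 CPM. Large-type neurons of library 2 also held more receptor RNA than nociceptor-type neurons, with 27.4 against 7.53 CPM of Erbb3 and 31.3 against 9.54 CPM of Adgrg6, and those of library 3 had 5.12 against 2.45 CPM and 5.27 against 2.06 CPM. Beside this, in library 2, Fabp7, a satellite glia marker, stood at 8.00% of the glial level in large-type and 1.62% in nociceptor-type neurons. Sox10 stood at 10.2% and 3.07%. Spp1, a large-type marker, was among the 10 leading genes by fold of glia-like cells in library 2. The split can therefore favour barcodes with glial RNA there. The part of glial RNA and of this marker in the receptor values was not tested.

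Macrophage-like cells carried Erbb3 and Adgrg6 but hardly any Erbb2. In library 1, which had the most of these cells, Erbb3 was at 36.5 CPM (32.6 to 40.8, from 312 UMIs) and Adgrg6 at 50.6 CPM (45.9 to 55.6, from 432 UMIs). Fibroblast-like cells of that library had 0.57 and 1.95 CPM, so the log2 ratios of macrophage-like over fibroblast-like cells were 6.0 (5.48 to 6.57) and 4.70 (4.39 to 5.01). With a stricter class gate the Erbb3 ratio was 6.63. Erbb2 showed the reverse, with 2 UMIs in macrophage-like cells (0.23 CPM) against 382 in fibroblast-like cells (6.59 CPM), a log2 ratio of counts of −4.82 (−7.87 to −2.95). In that library 20.3% of all genes measured were called higher in macrophage-like cells and 24.6% lower.

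Glial RNA was measured beside these values. In library 1, macrophage-like cells had 1.41% of the glial level of Mbp (myelin basic protein), 1.77% of Prx and 0.12% of Mag, both also proteins of myelinating cells, 0.78% of Sox10 and 0.28% of Cdh19, while Erbb3 stood at 21.8% and Adgrg6 at 58.5%. Of 2016 macrophage-like cells, 1788 had 0 UMIs of 9 glial genes (these 5, S100b, Foxd3, Gpm6b and Gfra3), and Erbb3 in them was at 39.3 CPM (34.9 to 44.0) and Adgrg6 at 51.2 CPM (46.1 to 56.6). Of the 221 macrophage-like cells with an Erbb3 UMI, 207 were among those 1788. Sox10, S100b, Cdh19, Foxd3, Gpm6b and Gfra3 are also glial gate markers, so the gate itself favours macrophage-like barcodes without them. The part of glial RNA in the Erbb3 and Adgrg6 values was not tested.

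Erbb3 was unevenly spread among the macrophage-like cells of library 1. All 312 UMIs were in the 1776 cells with a UMI of Mrc1 or Cd163, scavenger receptors of resident macrophages, which gave 41.9 CPM (37.4 to 46.8). The other 240 macrophage-like cells had 0 Erbb3 UMIs. Taking 3 UMIs (2.74 CPM) for them, Erbb3 was 15.3-fold higher in the Mrc1 or Cd163 cells. The interval of the log2 ratio began at 3.63 and had no upper limit. The median depth was 3813 UMIs in the Mrc1 or Cd163 cells and 4273 UMIs in the others. Adgrg6 was at 53.9 CPM and 28.3 CPM in these sets, a log2 ratio of 0.93 (0.40 to 1.51). This split was chosen after the Erbb3 level in macrophage-like cells, and genes that vary with it there, had been seen. Its size and interval are therefore no independent support, and it is a description of 1 library.

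In the other libraries the macrophage-like cells were few. Library 4 had 95, with Erbb3 at 79.6 CPM (65.2 to 96.3) and Adgrg6 at 62.3 CPM (49.6 to 77.2), against 42.6 and 22.5 CPM in fibroblast-like cells. The log2 ratios were 0.90 (0.59 to 1.20) and 1.47 (1.11 to 1.81). With a stricter class gate the Erbb3 ratio of library 4 fell to 0.37, below that interval. Only 33 of these 95 cells lacked the 9 glial genes, and with them alone Erbb3 was at 84.8 CPM (57.6 to 120.4) and the log2 ratio was 0.99. Erbb2 had 2 UMIs in the 95 cells, against 420 in fibroblast-like cells, a log2 ratio of counts of −3.93 (−6.98 to −2.07). In library 3 the 104 macrophage-like cells had 11 Erbb3 UMIs (24.0 CPM, 12 to 43.0), 7 Adgrg6 UMIs (15.3 CPM) and 0 Erbb2 UMIs. In library 2 the 171 cells had 6 Erbb3 UMIs (9.73 CPM, 3.57 to 21.2), of which 1 was in a cell free of the glial genes, beside 22 Adgrg6 UMIs (35.7 CPM, 22.4 to 54.0) and 0 Erbb2 UMIs. Mbp, Prx (14 UMIs) and Mag (5 UMIs) stood at 17.4%, 51.0% and 44.3% of the glial level in macrophage-like cells of library 2, above the Erbb3 share of 7.61%. Sox10 (1 UMI) and Cdh19 (5 UMIs) stood below it, at 1.36% and 4.15%. Of all genes measured, 18%, 18% and 15.8% were called higher in macrophage-like than in fibroblast-like cells of libraries 2 to 4, and 21%, 23% and 26.6% lower. Over the 4 libraries Adgrg6 was measured in 3 and called higher in 3, Erbb3 was measured in 2 and called higher in 1, and Erbb2 was measured in 2 and called lower in 2.

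Glia-like cells still had more of both receptors than macrophage-like cells. The log2 ratio of glia-like over macrophage-like cells was 2.20, 3.72, 3.32 and 2.26 for Erbb3 and 0.77, 1.77, 2.20 and 0.98 for Adgrg6 in libraries 1 to 4, with every interval above 0. Erbb3 was called in 4 of 4 libraries and Adgrg6 in libraries 2 and 3; of all genes measured, 30.6%, 21.7%, 24.6% and 27.5% were called higher. Erbb2 had a log2 ratio of counts of 5.81 (3.58 to 9.04) in library 1 and 3.99 (2.13 to 7.03) in library 4. Against the 0 UMIs of libraries 2 and 3 it was 3.63-fold and 3.29-fold higher in glia-like cells, taking 3 UMIs for the macrophage-like side. The intervals of these log2 ratios began at 1.55 and 1.36 and had no upper limit.

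**Figure D3:**
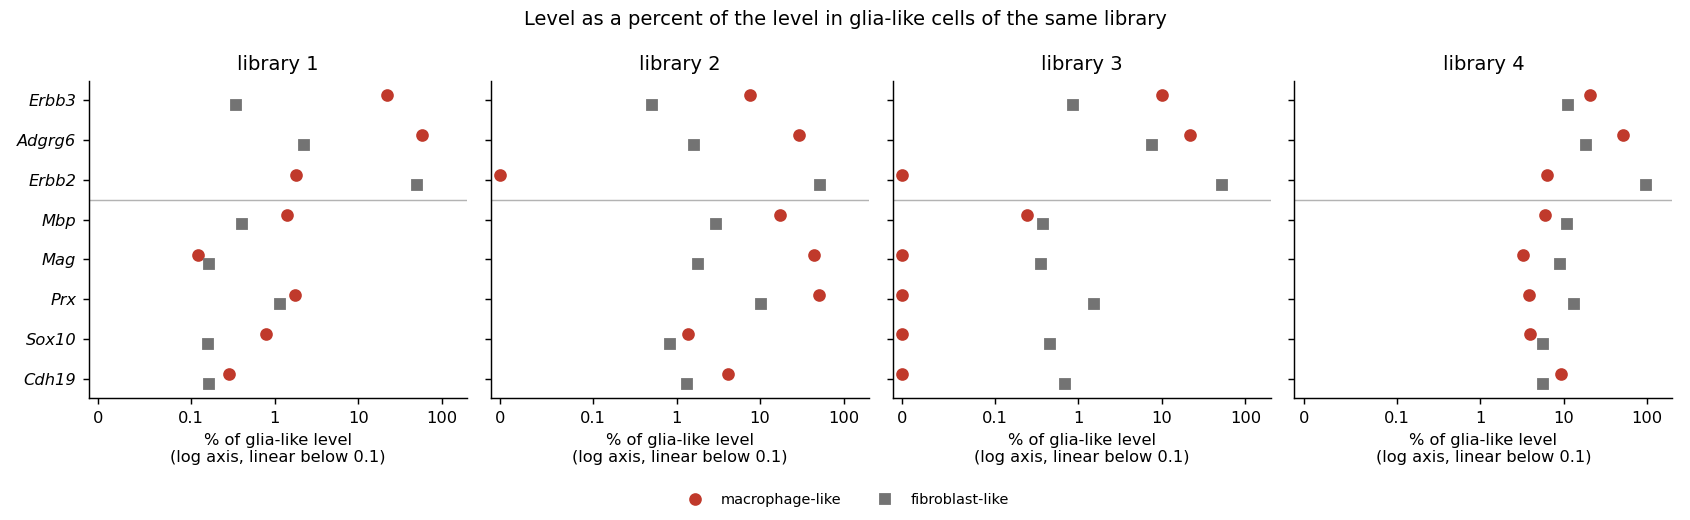
Level of each gene in macrophage-like and fibroblast-like cells as a percent of the glia-like level of the same library (log axis, linear below 0.1). In library 1 the macrophage-like points of Erbb3 (21.8%) and Adgrg6 (58.5%) lie far right of those of the glial genes below the line (0.12% to 1.77%), while in library 4 the glial genes reach 3.24% to 9.17%.

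Erbb3 UMIs were also counted in erythroid-like, neuron-like and endothelial-like cells. Erythroid-like barcodes of library 4 had 129 CPM of Erbb3 and 46.9 CPM of Adgrg6, which is 33.8% and 38.3% of the glial level, beside 22.7% for Mbp, 30.8% for Sox10 and 24.9% for Cdh19. Those of libraries 2 and 3 rested on 4 and 17 Erbb3 UMIs. In neuron-like cells of library 2 Erbb3, Erbb2 and Adgrg6 stood at 7.84%, 7.16% and 9.96% of the glial level and Mbp, Prx and Sox10 at 10.6%, 6.56% and 4.41%. In library 3 the receptor shares were 1.55% (257 Erbb3 UMIs), 2.68% and 3.94%, and the glial genes were lower, with Mbp, Prx, Sox10 and Cdh19 at 0.60%, 0.46%, 1.18% and 1.32%. Endothelial-like cells of library 4 had 26 Erbb3 UMIs (13.7 CPM, 8.96 to 20.1), 3.60% of the glial level, beside 2.38% for Mbp, 4.55% for Prx and 4.03% for Sox10, and in libraries 1 to 3 they had 0, 6 and 6 Erbb3 UMIs. The part of glial RNA in these values was not tested.

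Within the glia, Erbb3 differed little between immature-marker, dividing and myelin-high cells. Of 7809 glia-like cells, 7561 were divided by myelin genes, immature or nonmyelinating genes, satellite glia genes and cell cycle genes, and 1688 cells lay near a dividing line. In library 4 Erbb3 was at 390 CPM in 1400 immature-marker cells (378 to 401), 358 CPM in 687 dividing cells (346 to 371) and 384 CPM in 3503 myelin-high cells (377 to 391). The log2 ratio over myelin-high cells was 0.02 (−0.03 to 0.07) for immature-marker cells and −0.10 (−0.16 to −0.04) for dividing cells. In libraries 1 to 3 the ratio of immature-marker over myelin-high cells was 0.18, 0.24 and −0.24, and that of 33 dividing cells of library 3 was 0.25, all with intervals that included 0.

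Satellite-marker glia, the glia that surround neuron bodies, had less Erbb3 and more Adgrg6 than myelin-high glia of the same library. In library 2 their Erbb3 was at 116 CPM (616 cells, 108 to 124), against 141 CPM in myelin-high glia (476 cells, 128 to 156), a log2 ratio of −0.29 (−0.46 to −0.11). In library 3 it was at 124 CPM in 36 cells (70.8 to 201), against 247 CPM in 374 cells (223 to 272), a log2 ratio of −1.0 (−1.82 to −0.28). Adgrg6 was at 125 against 106 CPM in library 2, a log2 ratio of 0.23 (0.05 to 0.42), and at 178 against 53.6 CPM in library 3, a log2 ratio of 1.73 (1.00 to 2.41). Of all genes measured in library 3, 16.3% were at least 2-fold higher and 12.6% at least 2-fold lower in satellite-marker than in myelin-high glia, so wide ratios were common in a set of 36 cells. In library 2 these shares were 1.47% and 4.24%.

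Adgrg6 was higher in dividing than in myelin-high glia of libraries 3 and 4, and Erbb2 in those of library 4; for immature-marker glia library 2 alone had intervals clear of 0. Immature-marker over myelin-high glia gave log2 ratios of 0.54, 0.47, 0.45 and 0.07 for Adgrg6 in libraries 1 to 4, and that of library 2 ran from 0.17 to 0.76. For Erbb2 the ratio was 0.86 (0.08 to 1.61) in library 2, and it was 0.56, 0.15 and 0.09 in libraries 1, 3 and 4, with intervals that included 0. Dividing glia of library 4 had 29.3 CPM of Erbb2 (25.8 to 33.2), against 22.2 CPM in myelin-high glia (20.5 to 24.0), a log2 ratio of 0.40 (0.18 to 0.62). Their Adgrg6 was at 133 against 118 CPM, a log2 ratio of 0.17 (0.07 to 0.27). The 33 dividing glia of library 3 had 97.6 against 53.6 CPM of Adgrg6, a log2 ratio of 0.87 (0.05 to 1.61), and for Erbb2, with 5 UMIs, it was 0.42 (−1.30 to 1.78). Of all genes measured, 14.5% in library 3 and 5.98% in library 4 were at least 2-fold higher in dividing glia. None of these differences reached 2-fold.

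**Figure D4:**
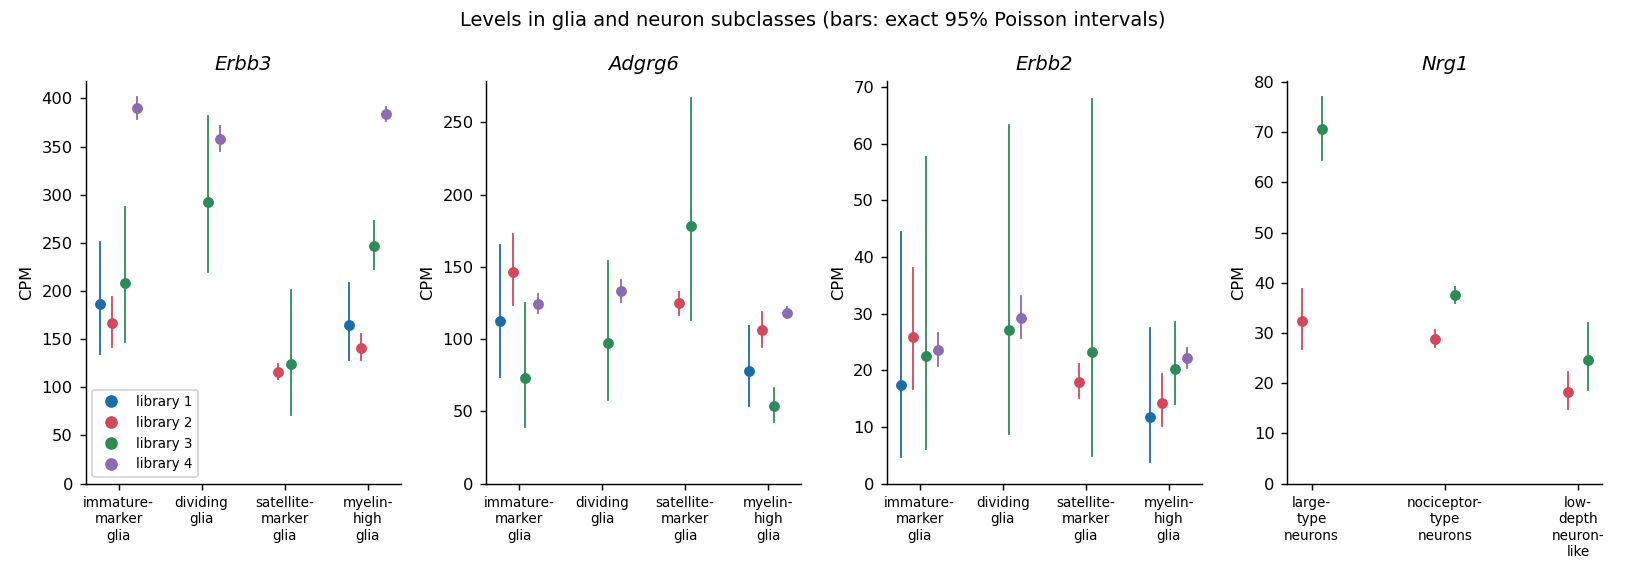
Levels (CPM) of Erbb3, Adgrg6 and Erbb2 in glia subclasses and of Nrg1 in neuron subclasses, with 1 point per library and exact 95% Poisson intervals. Erbb3 is nearly level across immature-marker, dividing and myelin-high glia of library 4 (358 to 390 CPM), and Nrg1 reaches 70.6 CPM in large-type neurons of library 3.

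Detection per cell was compared after thinning each cell to 1000 UMIs. Among glia-like cells, Erbb3 was then seen in 15.8%, 13.6%, 23.1% and 32.1% of cells in libraries 1 to 4, against 0.11%, 0.24%, 0.36% and 6.12% of fibroblast-like cells. Adgrg6 was seen in 7.46%, 10.0%, 8.26% and 11.5% of glia-like cells, against 0.15%, 0.48%, 0.57% and 3.02% of fibroblast-like cells. Erbb2 was seen in 1.75%, 1.71%, 1.65% and 2.33% of glia-like cells, against 0.61%, 1.21%, 1.07% and 2.43% of fibroblast-like cells. Thinning left out from 2 to 25 glia-like cells and from 8 to 273 fibroblast-like cells per library. Nrg1 was seen in 0.50% and 0.73% of thinned glia-like cells of libraries 2 and 3 and in 1.96% and 3.23% of their neuron-like cells, with 17 and 4 shallower glia-like cells and 2091 and 932 neuron-like cells left out.

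At full depth Erbb3 was found in most glia-like cells of 3 libraries. It had a UMI in 39.6%, 55.7%, 57.7% and 90.6% of glia-like cells, at median depths of 2895, 7617, 3672 and 7319 UMIs. In fibroblast-like cells the shares were 0.38%, 0.47%, 0.99% and 21.9%, at 7813, 6769, 5686 and 10993 UMIs. Of the 5606 glia-like cells of library 4, 526 had 0 Erbb3 UMIs, 1010 had 1, 2703 had 2 to 4 and 1367 had 5 or more, with at most 27 in a cell. Nrg1 had a UMI in 2.95% and 1.64% of glia-like cells of libraries 2 and 3, and in 11.8% and 35.3% of neuron-like cells at median depths of 1133.5 and 4933 UMIs.

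At a depth of 1000 UMIs per cell, no difference in Erbb2 detection between glia-like cells with and without Erbb3 could be resolved. In library 2 Erbb2 was in 2.60% of 192 cells with an Erbb3 UMI (0.85% to 5.97%) and in 1.56% of 1215 cells without one (0.94% to 2.43%). In library 4 it was in 2.23% of 1794 cells with an Erbb3 UMI (1.60% to 3.02%) and in 2.38% of 3787 cells without one (1.92% to 2.91%). The odds ratio of an Erbb2 UMI, cells with over cells without Erbb3, was 1.79, 1.68, 0.41 and 0.94 in libraries 1 to 4, and every interval included 1. That of library 4 ran from 0.63 to 1.38 and that of library 2 from 0.49 to 4.73. Libraries 1 and 3 had 1 cell each with both genes, so their intervals were wide.

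The other members of the ligand and receptor families were set beside these genes by lists that hold 117 genes, of which 113 were in the matrix. Receptor RNA differed between glia-like and fibroblast-like cells. Egfr, the founding receptor of the family, had 0, 0, 0 and 10 UMIs in glia-like cells of libraries 1 to 4, against 645, 32, 210 and 915 in fibroblast-like cells (11.1, 10.5, 23.1 and 49.9 CPM). Library 4 gave a log2 ratio of glia-like over fibroblast-like cells of −7.89. With the 0 UMIs of the glial side taken as 3, the log2 ratio was −5.46 in library 2 and −4.10 in library 3. Erbb4, which also binds neuregulins, had 199 UMIs in glia-like cells of library 4 (4.20 CPM), against 5 in fibroblast-like cells (0.27 CPM), and at most 7 UMIs in any class of the other libraries.

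Of the 10 EGF-family ligands found, Tgfa was higher in glia-like than in fibroblast-like cells in each of the 3 libraries where it was measured. It was at 6.55, 29.1, 14.8 and 37.0 CPM in glia-like cells and at 0.78, 0.66, 0.55 and 4.47 CPM in fibroblast-like cells, with 366 against 2 UMIs in library 2 and log2 ratios of 4.75 and 3.05 in libraries 3 and 4. Hbegf, another ligand of the family, was highest in endothelial-like cells, at 723, 970, 808 and 447 CPM, beside 227, 208, 61.9 and 158 CPM in glia-like cells. Nrg2, a second neuregulin, had 21 and 0 UMIs in glia-like cells of libraries 2 and 3, was at 18.6 and 8.29 CPM in their neuron-like cells, and was at 9.25 CPM in macrophage-like cells of library 1. Nrg4 had 16 UMIs in macrophage-like cells of library 4 (12 CPM) and 10 in those of library 1. Btc did not keep a direction, with log2 ratios of glia-like over fibroblast-like cells of 5.76 in library 1, −3.77 in library 3 and 1.23 in library 4. Areg reached 16.5 CPM in macrophage-like cells of library 4, and Ereg, Epgn and Egf had at most 7, 49 and 2 UMIs in any class. In the ligand list, 2, 2, 3 and 6 genes were measured between glia-like and fibroblast-like cells of libraries 1 to 4, of which 2, 1, 1 and 3 were called higher and 0, 0, 1 and 2 lower. Over all measured genes the shares were 28%, 12.8%, 13.6% and 12.6% higher and 14.1%, 18.2%, 15.8% and 17.9% lower.

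**Figure D5:**
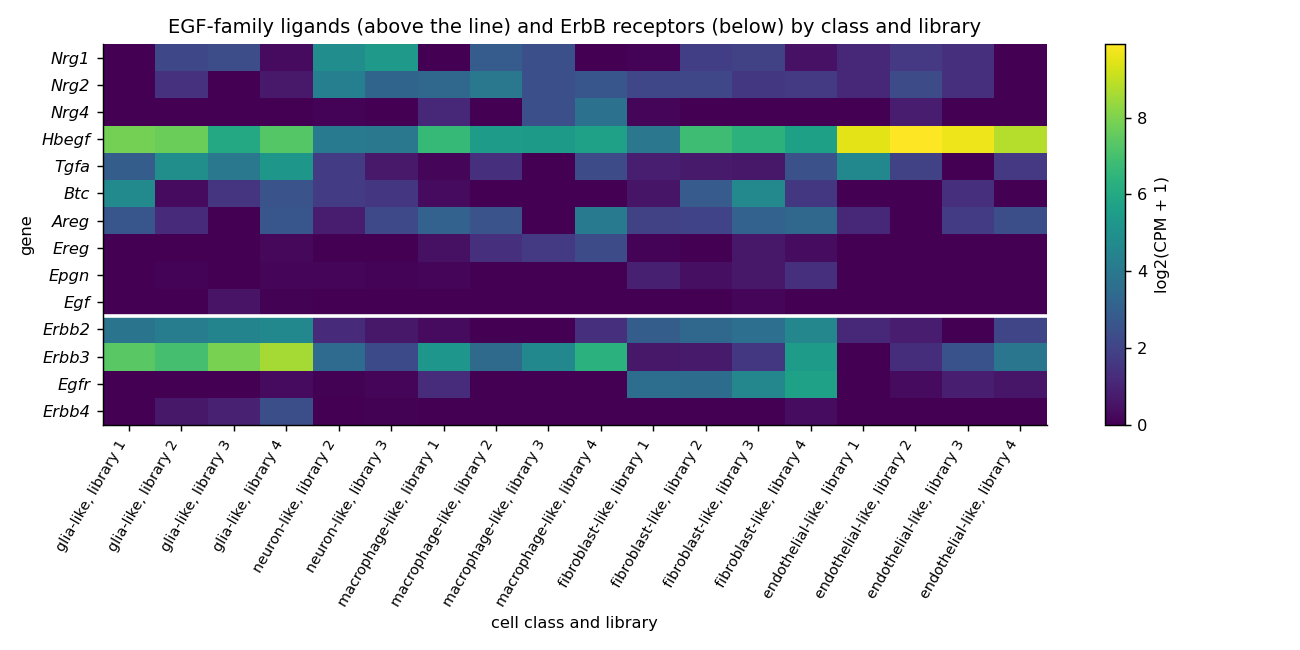
Levels of EGF-family ligands and ErbB receptors as log2(CPM + 1), with genes down the page and cell classes of each library across it; each row is to be read along itself. Nrg1 is brightest in neuron-like cells (27.9 and 40.6 CPM), Erbb3 in glia-like cells, Egfr in fibroblast-like cells (10.5 to 49.9 CPM) and Hbegf in endothelial-like cells (447 to 970 CPM).

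RNA of ligands and partners of Adgrg6 was counted in glia-like and in fibroblast-like cells. Prnp, the prion protein, was at 933, 594, 620.3 and 1101 CPM in glia-like cells and at 171, 303, 310.3 and 196 CPM in fibroblast-like cells, with log2 ratios of 2.45, 0.97, 1.00 and 2.49. The type IV collagen chain Col4a4 had the reverse order, with log2 ratios of −4.03 in library 2 and −5.93 in library 4, and with 1 and 2 UMIs in glia-like cells of libraries 1 and 3, against 4912 and 100 in fibroblast-like cells. Col4a5 followed it with −2.76, −2.02 and −4.57 in libraries 2 to 4. The common chains Col4a1 and Col4a2 were close to equal in libraries 2 to 4 (log2 ratios −0.01 to 0.43) and higher in glia-like cells of library 1 (1.90 and 1.65). Of the laminin-211 chains, Lama2 had log2 ratios of −0.69, −1.46, 0.50 and 0.83, Lamc1 −0.30, −1.35, 0.73 and 0.93, and Lamb1 0.86, 0.02, 1.43 and 1.29. Col4a3 and Col4a6 were measured in 0 libraries. Against macrophage-like cells, all list members that could be measured were called higher in glia-like cells (6, 5, 6 and 6 genes in libraries 1 to 4), and against neuron-like cells 6 of 8 and 6 of 6 in libraries 2 and 3. Beside this, 30.6%, 21.7%, 24.6% and 27.5% of all measured genes were called higher against macrophage-like cells. Against neuron-like cells these shares were 22.7% and 26.7%.

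Enzymes, adaptors and brakes of the pathway moved in both directions between glia-like and fibroblast-like cells. Over all lists, 19 of 46, 15 of 74, 20 of 71 and 26 of 101 measured genes were called higher in glia-like cells of libraries 1 to 4, and 6, 17, 14 and 23 were called lower. In percent of all measured genes, 28%, 12.8%, 13.6% and 12.6% were called higher and 14.1%, 18.2%, 15.8% and 17.9% lower. The list medians were 0.82, −0.05, 0.18 and 0.16 on the log2 scale, beside 0.46, −0.12, 0.13 and 0.02 for all measured genes. Adam10 and Adam17, proteases that can cleave neuregulin, were called higher in 4 of 4 libraries, with log2 ratios of 1.91 to 2.98 and 1.20 to 2.06. Bace2 was lower (−2.09 to −0.64). The kinase Src was higher (1.13 to 2.24), Mapk3, the ERK1 kinase, was higher (0.87 to 1.51), and Plcg1 was lower (−2.19 to −1.48). The feedback inhibitors Errfi1 and Spry1 were lower in glia-like cells, at −4.62 to −0.91 and −4.53 to −1.92, while Spry2, of the same list and named after its values were seen, had log2 ratios of 0.79, 0.47, 1.37 and 1.47. Ndrg1, which is mutated in an inherited neuropathy, was higher (1.05 to 2.07). In the cAMP arm, Pde4b, which breaks down cyclic AMP, was higher (1.87 to 3.55), Gnas, the stimulatory G protein subunit, was lower (−1.80 to −0.96), and Prkar1a was slightly higher (0.45 to 0.78). Downstream, Egr2, the myelination transcription factor, had log2 ratios of 0.50 to 2.30 and Nab2, its cofactor, 0.50 to 1.65. Among the other adhesion receptors, Adgrg1, a relative of Adgrg6, was called higher in glia-like cells of all 4 libraries, with log2 ratios of 2.96 to 8.97.

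Between glia-like and neuron-like cells, 37 of 89 and 36 of 72 measured list genes were called higher and 29 and 11 lower in libraries 2 and 3, beside 22.7% and 26.7% higher and 32.1% and 22.7% lower of all measured genes. The brakes Dusp6 (3.37 and 5.29) and Lrig3 (4.13 and 4.71), and Sh3tc2 (3.70 and 6.31), an endosomal traffic protein whose human form is mutated in an inherited neuropathy, were higher in glia-like cells, as were the transcription factor Pou3f2 (4.32 and 6.79), Egr2 (3.47 and 5.03), and the cyclase Adcy6 (1.91 and 4.29). Pik3cb (−2.94 and −1.69), Prkar2b (−3.45 and −3.93), Adgrg2 (−5.14 and −3.19) and Adgrl2 (−1.34 and −2.90) were lower. Against macrophage-like cells, 26 of 47, 21 of 43, 19 of 41 and 34 of 64 were called higher and 2, 6, 6 and 10 lower in libraries 1 to 4, beside 30.6%, 21.7%, 24.6% and 27.5% higher and 15.6%, 24.9%, 19.2% and 17% lower of all measured genes. Adgre1, the F4/80 receptor of macrophages, had 2, 10, 0 and 3 UMIs in glia-like cells of libraries 1 to 4, against 2578, 183, 41 and 142 in macrophage-like cells. The kinase Fyn (0.90 to 2.80), Pik3r1 (1.45 to 1.90) and Ndrg1 (1.36 to 2.11) were higher. Between macrophage-like and fibroblast-like cells, 18 of 86, 6 of 41, 3 of 36 and 7 of 67 were called higher and 35, 14, 10 and 26 lower, beside 20.3%, 18%, 18% and 15.8% higher and 24.6%, 21%, 23% and 26.6% lower of all measured genes. Of the list genes, Grb2 (1.42 to 1.90) and Pde4b (1.98 to 3.54) were higher and all measured Adgrg6 partners were lower (9, 7, 6 and 8 genes).

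The genes whose class pattern was most like each of the 4 genes were ranked by Pearson r of log2(CPM + 1) over 27 points of library and class, among 12761 genes that were not gate markers. For Erbb3 they were Gas2l3 (0.95), Pmp2 (0.91), Mbp (0.90), Ly6g6d (0.87) and Rxrg (0.86). For Adgrg6 they were Mal (0.88), Erbb3 (0.82), Depdc7 (0.82), Rhbdf2 (0.77) and Mbp (0.76). For Erbb2 they were Sardh (0.91), Sorcs2 (0.90), Arhgap42 (0.90), Kirrel1 (0.90) and Ephb3 (0.88). For Nrg1 they were MAST1 (0.97), March11 (0.96), Slc6a15 (0.94), Spock1 (0.94) and Cartpt (0.94). Points share libraries, depth and free RNA. Of the 5 genes named for each, 3 remained with Spearman's rho, and with points of at least 50 cells 0 remained for Nrg1, 3 for Erbb2, 4 for Erbb3 and 2 for Adgrg6.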

How the data were processed

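Droplet single-cell RNA sequencing (10x Genomics 3′ v3) was done on 4 rat libraries. The deposited values were raw UMI counts per gene and barcode in 1 matrix made with Cell Ranger 3.1.0, per the file headers. CASAVA 1.8, Seurat and the build Rnor_6.0 are listed, with no role, per the submitters' processing notes. No step after counting is recorded in the sources used here.

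Rows of equal symbol were summed (25399 rows, 25267 symbols). Kept barcodes had 500 or more detected genes and no more than 20% mitochondrial UMIs. Each was scored for 16 classes (93 of 100 markers found): every marker's log2(1 + UMIs per 10000) was divided by its 95th percentile among barcodes that detect it, capped at 1, and averaged. A class needed 3 detected markers, a score of 0.2 and 1.25 times the score of the next class, and 2210 kept barcodes fell in none. No doublet caller was run; this lead is the only step that removes barcodes of mixed classes. Points needed 20 cells. UMIs were summed per library and class and divided by the class total to give CPM. Ratios used a floor of 3 UMIs, and none is given where both sides were at or under it or where it set the direction. Intervals are 95% Poisson, Clopper-Pearson or conditional binomial intervals. PCR duplicates are collapsed by UMIs, and intervals and floors cover counting error only. Depth is in the report. Detection used cells thinned to 1000 UMIs with a fixed seed. No test was run, since each group had 1 library.

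The plan asked for 20 UMIs on one side for a measured gene. On simulated counts of 25267 genes for glia-like over fibroblast-like cells in library 1, that rule put 3135 of 12395 unchanged genes past 2-fold. The minimum was therefore taken at the shallower side's total, where 13 of 3851 were past it. Both rules recovered 198 of 200 changed genes. These 200 were drawn from genes with many UMIs in fibroblast-like cells. Their recovery therefore does not show how many changed genes the chosen minimum misses. The new minimum changed which genes the text names. Of 20, 26, 21 and 13 genes chosen in the 4 contrasts, 16, 24, 18 and 8 would also be chosen under the planned wording. List genes were named where measured with 1 sign in every library, up to 3 per list by size; the ligands, receptors and Adgrg6 partners were always named. Sox10, which the rule also names, is a gate marker and is not given as a result. Some glial markers are not reported here.

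The 4 genes and all lists were chosen with earlier results of these data known. The gate thresholds and the subclass cuts, including the need for a Fabp7 UMI in satellite-marker glia, were set after earlier versions had been run and the 4 genes' levels seen. The macrophage-like over fibroblast-like contrast, its split by Mrc1 or Cd163 and the check without glial genes were added after the Erbb3 level in macrophage-like cells, and genes that vary with it there, had been seen. Promoters came from RefSeq (GRCr8). Scripts ran in Python 3.11.15 with scipy 1.17.1, numpy 2.4.6, matplotlib 3.10.9 and pandas 2.3.3.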

Additional observations from a re-analysis of the deposited data

Results flagged for a closer look

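Barcodes outside the filters on detected genes and mitochondrial UMIs, which no comparison uses, also held UMIs of the 4 genes above the limit of 3 UMIs. Nrg1 was at 38.7 CPM in the 1661 such barcodes of library 2 and at 34.7 CPM in the 3783 of library 3. Erbb3 was at 34.9, 15.7, 5.16 and 127 CPM in those of libraries 1 to 4, Adgrg6 at 17.4, 22.3, 2.63 and 38.4 CPM, and Erbb2 at 9.14, 3.28, 0.996 and 11.4 CPM. The median depth of these barcodes was 862.5, 714, 921 and 736 UMIs. No explanation was tested.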

How the results depend on the processing

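Over all alternatives, 2388 of 2795 recomputed values stayed within their interval or within 1.5 times the count, 407 moved and 0 called values changed sign. The Nrg1 log2 ratio of glia-like over fibroblast-like cells in library 3, whose interval included 0, became −0.02 with a stricter gate. The Erbb3 log2 ratio of glia-like over fibroblast-like cells in library 4 (3.16) became 2.98 with a minimum of 200 genes, 3.37 with 1000 genes, 3.79 with a mitochondrial limit of 10%, 2.81 with a stricter gate, 2.70 without the lead over a second class and 1.88 as a mean over cells. That of library 2 became 5.33 without the lead, and that of library 1 became 7.43 as a mean over cells. Adgrg6 in library 4 (2.45) became 2.91 with the mitochondrial limit, 2.25 with the stricter gate, 2.14 without the lead and 1.64 as a mean over cells. Erbb2 in library 4 became 0.23 with the mitochondrial limit. The Nrg1 log2 ratio of glia-like over neuron-like cells in library 2 became −2.45 as a mean over cells. The Erbb3 log2 ratio of macrophage-like over fibroblast-like cells became 6.63 in library 1 and 0.37 in library 4 with the stricter gate.

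The odds ratio of Erbb2 with Erbb3 became 0 in library 1 with 1000 genes, with the mitochondrial limit and with 500 UMIs. It became 4.25 in library 3 with the mitochondrial limit. In library 4 it became 0.58 with 500 UMIs and 1.46 without thinning. Without thinning the cells differ in depth, and the part of depth in that value was not tested. List genes called higher in glia-like than fibroblast-like cells became 29, 9 and 11 in library 1 with a minimum of 5 UMIs, 100 UMIs and 4-fold, 23 in library 2 with 1.5-fold, 12 and 9 in library 3 with 100 UMIs and 4-fold, and 12 in library 4 with 4-fold. Those called lower became 13 in library 1 with 5 UMIs, 11, 6 and 9 in library 2 with the mitochondrial limit, 100 UMIs and 4-fold, 5 and 8 in library 3 and 14 and 12 in library 4 with 100 UMIs and 4-fold. With 20 UMIs on one side, library 1 had 35 higher and 13 lower. On simulated counts that rule put unchanged genes past 2-fold, but whether it did so for these list genes was not tested. The cause of the other changes was not tested either. No paired analysis was possible because each group has 1 library and no test was run. Leaving out a replicate was not possible for the same reason. Depth limits Erbb2 in library 1 and all 4 genes in the macrophage-like cells of libraries 2 and 3.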
